A study of Mus musculus with 8 samples.

Results

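Myc and the genes of polyamine metabolism were examined in splenic T cells of WT and SDHA-KO mice. The set is 9 of the 20170 genes in the deposited count matrix: Myc, Odc1, Srm, Sms, Amd1, Azin1, Oaz1, Sat1 and Eif5a. These genes were grouped by their known roles, with earlier results of these data known. Every one of them passed the filter on low counts in both CD4 and CD8 cells. The study sequenced single T cells in 8 libraries, 2 for each of 4 groups: WT cells and SDHA-KO cells, each unstimulated or stimulated. SDHA is the catalytic subunit of mitochondrial complex II, and the question was what its loss does to gene expression in resting and in activated T cells. SDHA-KO mice carried Sdha fl/fl and CD4-Cre, so Cre acts from the CD4+CD8+ thymocyte stage onward and deletes in CD4 and CD8 lineages alike, a stage that gamma-delta T cells do not pass through. The labels give the controls as WT only, and the mice of the study were 8 to 12 weeks old. T cells were purified magnetically from spleen and kept in medium alone or stimulated for 48 hours by 5 μg/mL anti-CD3ε plus 2.5 μg/mL anti-CD28, and dead cells were removed in all groups. Nothing states that the libraries of a group came from separate mice, so the p-values measure the spread between these libraries, which may be technical.

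Myc is a transcription factor that rises within hours of T cell receptor signaling and drives the growth of the cell before it divides. Polyamines are small positively charged molecules that bind RNA and DNA and are needed for proliferation. Odc1, a textbook target of Myc, makes putrescine from ornithine; Amd1 makes decarboxylated S-adenosylmethionine, which Srm and Sms use to build spermidine and then spermine. Oaz1, the antizyme, binds Odc1 and sends it to the proteasome, and Azin1 is a decoy that binds antizyme and spares Odc1. Sat1 acetylates spermidine and spermine for export or breakdown. Eif5a is a translation factor and the only protein known to carry hypusine, a residue that Dhps and Dohh make from spermidine.

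Myc binds DNA as a dimer with Max, and its best known site is the E-box CACGTG, which reads the same on both strands. The 250 bases before the annotated start were searched for it in RefSeq windows of GRCm38.p6, the build of the files (mm10). Of the 9 genes, 6 had a window, namely Odc1, Sms, Amd1, Oaz1, Sat1 and Eif5a. CACGTG was present for 2 of these 6 genes, Sms and Eif5a, or 33.3%, against 6.86% of all 27025 genes with a window. It lay in 1 of 2 windows of Sms and in 3 of 6 windows of Eif5a, 2 of which hold the same E-box. The 4 windows below are shown because Odc1 and Eif5a rose most after stimulation among the genes with a window, Sms rose with them, and Oaz1 was not called as rising in the full sums of WT cells. Each is given 5′ to 3′ on the strand of its gene, in lower case with CACGTG in capitals: Odc1 on chr12:17544623-17544872 (+ strand), Sms on chrX:157492288-157492537 (- strand), Eif5a on chr11:69921387-69921636 (- strand) and Oaz1 on chr10:80826406-80826655 (+ strand).
Odc1: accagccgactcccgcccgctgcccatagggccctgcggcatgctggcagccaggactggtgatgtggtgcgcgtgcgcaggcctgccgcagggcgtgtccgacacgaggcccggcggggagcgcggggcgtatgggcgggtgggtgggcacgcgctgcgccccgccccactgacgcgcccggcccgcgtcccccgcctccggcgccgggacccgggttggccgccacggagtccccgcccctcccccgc
Sms: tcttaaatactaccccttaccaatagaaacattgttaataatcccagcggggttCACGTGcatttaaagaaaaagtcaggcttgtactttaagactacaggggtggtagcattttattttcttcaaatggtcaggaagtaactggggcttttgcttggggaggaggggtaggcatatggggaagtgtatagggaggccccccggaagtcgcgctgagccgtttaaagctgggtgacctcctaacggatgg
Eif5a: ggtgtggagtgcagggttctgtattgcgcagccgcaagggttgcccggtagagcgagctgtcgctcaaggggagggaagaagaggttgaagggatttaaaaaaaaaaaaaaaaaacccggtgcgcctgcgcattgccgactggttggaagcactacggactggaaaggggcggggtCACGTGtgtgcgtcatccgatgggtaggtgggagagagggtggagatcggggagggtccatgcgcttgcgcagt
Oaz1: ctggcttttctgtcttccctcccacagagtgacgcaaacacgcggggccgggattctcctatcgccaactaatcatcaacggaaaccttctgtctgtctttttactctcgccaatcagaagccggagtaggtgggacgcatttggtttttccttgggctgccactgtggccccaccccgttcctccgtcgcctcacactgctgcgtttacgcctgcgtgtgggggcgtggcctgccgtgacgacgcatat
The E-box began 196 bases before the start of Sms and 74 bases before that of Eif5a. No match was found in the windows of Odc1, Amd1, Oaz1 and Sat1, which says only that these letters are not in these bases.

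The 12846 cells carried the study's own class, CD4 or CD8, and its Subtype (naive, Treg, central memory Tcm or effector memory Tem clusters). UMIs, counts of distinct captured mRNA molecules, were summed per library and class, and the sums held from 3640136 to 34087903 UMIs. Levels are in CPM, the UMIs of a gene scaled to the same total in every sum, with TMM scaling on top, and such a level cannot tell fewer expressing cells from less RNA per cell. T cell receptor and CD3 genes together reached 2226 CPM or more in every sum, and NK and erythroid markers stayed at or under 7.14 CPM. Myeloid markers stood at 38.7 CPM in the CD4 sum of unstimulated SDHA-KO replicate 1 and at 0.814 to 6.75 CPM in the other 15 sums. B cell markers stood at 345 CPM in the CD8 sum of stimulated SDHA-KO replicate 1 and at 64.1 CPM in that of replicate 2, against 53.7 and 50.0 CPM in stimulated WT, and results without replicate 1 are given where a call changed. The unstimulated sums of both classes held 96.8 to 176 CPM of B cell markers. Stimulated CD4 sums held 101 and 27.8 CPM in WT and 74.1 and 63.9 CPM in SDHA-KO. Sdha, the targeted gene, lay at 101 and 100.1 CPM in unstimulated WT and 49.8 and 49.4 CPM in unstimulated SDHA-KO CD4 cells, and at 74.0 and 73.1 against 26.5 and 26.4 CPM after stimulation. In CD8 cells Sdha lay at 91.4 and 95.7 against 39.0 and 37.6 CPM before stimulation and at 76.2 and 74.9 against 53.3 and 50.4 CPM after it. The stimulated genotypes also differed in ways that touch every result below. The share of cells with under 10% mitochondrial UMIs was 39.1% and 41.0% in stimulated WT and 86.9% and 90.0% in stimulated SDHA-KO CD4 cells, and 24.3% and 29.3% against 65.0% and 64.1% in CD8 cells. Cells with a UMI of Trdc, the constant gene of the delta chain, made up 3.67% and 4.92% of stimulated WT and 59.1% and 56.1% of stimulated SDHA-KO CD8 cells, and the 4 gamma-delta markers together gave 17.6 and 20.6 against 253 and 259 CPM there. In stimulated CD4 cells such cells made up 1.98% and 3.21% of WT and 10.1% and 8.64% of SDHA-KO. Results are therefore given also for cells with under 10% mitochondrial UMIs, named low-mitochondrial cells, and for CD8 cells without Trdc UMIs. Of the cell barcodes, 23 occurred in more than 1 library.

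**Figure D1:**
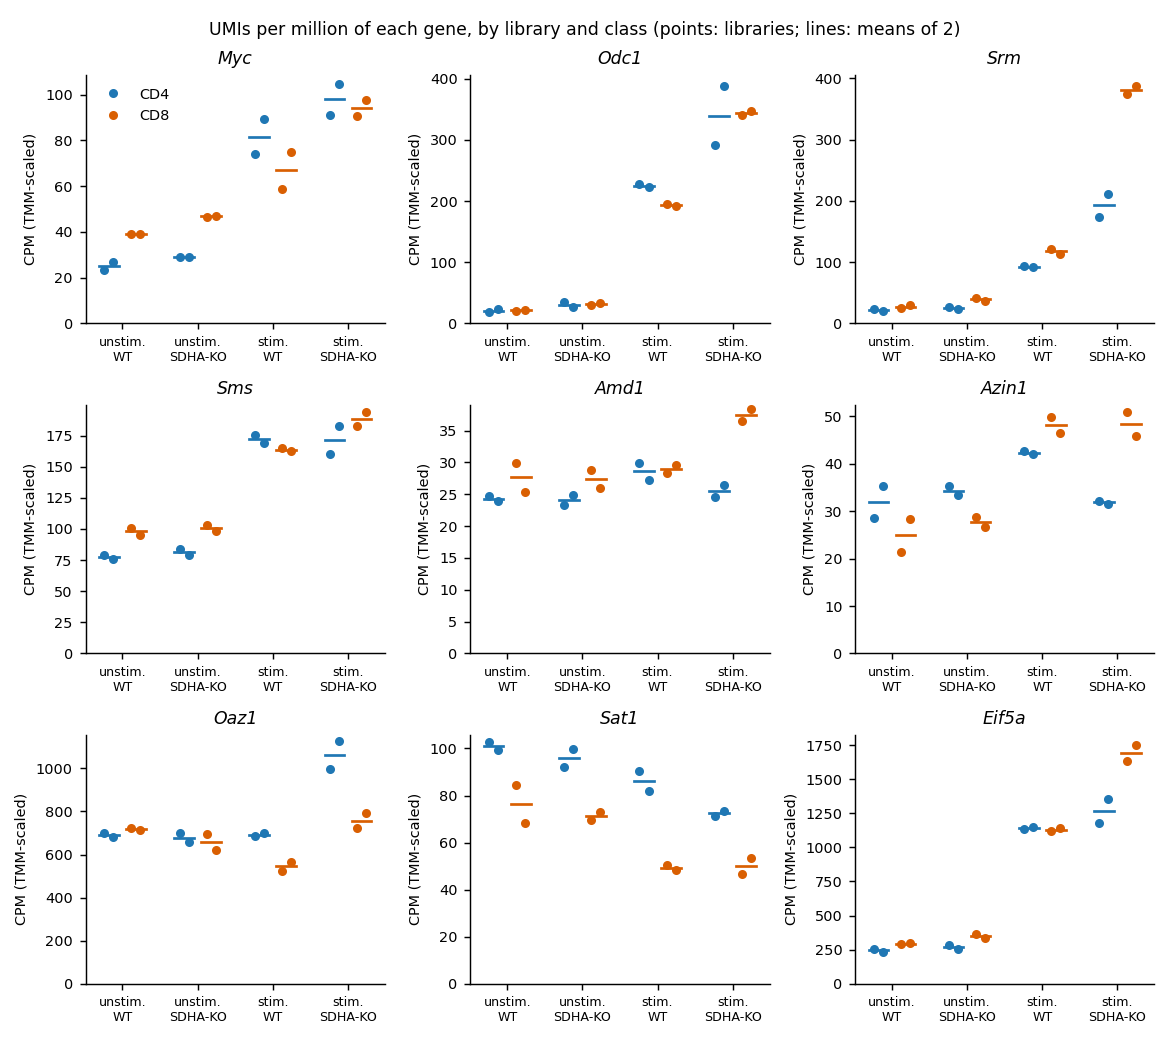
Level of each of the 9 genes (CPM after TMM scaling, linear axes that start at 0) in the summed CD4 cells and the summed CD8 cells of all 8 libraries, 1 point per library and a bar at the mean of the 2 libraries of a group. Odc1, Srm, Eif5a, Myc and Sms lay higher in all stimulated than in all unstimulated libraries, and Srm and Odc1 were higher in stimulated SDHA-KO than in stimulated WT libraries.

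Stimulation raised Odc1, Srm, Eif5a, Myc and Sms in both genotypes and both classes. In CD4 cells, Odc1 lay at 18.9 and 22.6 CPM in unstimulated WT, 34.1 and 26.0 CPM in unstimulated SDHA-KO, 228 and 223 CPM in stimulated WT, and 291 and 389 CPM in stimulated SDHA-KO libraries. The stimulated and unstimulated libraries did not overlap, and the log2 fold change was 3.44 in WT and 3.51 in SDHA-KO cells (adjusted p = 1.2e-08 and 5.3e-09, edgeR's quasi-likelihood test with Benjamini-Hochberg adjustment, as for all adjusted p-values below). In CD8 cells Odc1 was at 20.3 and 22.1, 29.98 and 32.6, 195 and 193, and 342 and 347 CPM in the same order of groups, with log2 fold changes of 3.19 and 3.46. Eif5a went from 258 and 236 CPM to 1133 and 1146 CPM in WT CD4 cells, a log2 fold change of 2.21, and from 290.2 and 298 to 1118 and 1141 CPM in WT CD8 cells, one of 1.94. Every stimulated library was above every unstimulated library for Eif5a too, and the share of all genes without overlap is not given. Of the 9 genes, 6 rose and 1 fell in WT CD4 cells, where 36.2% of the 14264 genes tested rose and 30.1% fell (66.3% in all). In WT CD8 cells 6 rose and 2 fell, where 35.5% of 13095 genes rose and 30.3% fell (65.7% in all). In SDHA-KO cells 6 rose and 1 fell in CD4, beside 36.6% and 33.2% of all genes (69.8% in all), and 8 rose and 1 fell in CD8 cells, beside 37.2% and 30.9% (68.2% in all).

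Both transferases rose, Srm with the larger log2 fold change. Srm lay at 23.6 and 20.8 CPM in unstimulated WT and 93.0 and 91.8 CPM in stimulated WT CD4 cells, and at 24.8 and 29.2 against 121 and 114 CPM in CD8 cells. These are log2 fold changes of 2.06 and 2.11, while the changes in SDHA-KO cells were 2.96 in CD4 and 3.27 in CD8 cells. Sms lay at 79.1 and 76.0 against 175 and 169 CPM in WT CD4 cells and at 101 and 95.5 against 165 and 163 CPM in WT CD8 cells. The log2 fold changes of Sms were between 0.74 and 1.15 over the 4 combinations of genotype and class. Amd1 was at 24.7 and 24.0 before and 29.99 and 27.2 CPM after stimulation in WT CD4 cells (log2 fold change 0.23, adjusted p = 0.0697), and in the full sums it rose past the threshold in SDHA-KO CD8 cells alone, from 28.8 and 26.1 to 36.5 and 38.3 CPM (log2 fold change 0.45, adjusted p = 0.00531). Without unstimulated SDHA-KO replicate 2 that change of Amd1 was 0.38 and missed the threshold (adjusted p = 0.0552), and without Trdc cells it was 0.04 (adjusted p = 0.839). In WT CD4 cells Amd1 passed among low-mitochondrial cells (0.32, adjusted p = 0.0153) and with no composition scaling (0.45, adjusted p = 0.00345). Reads of Amd1 cannot be told from those of its near-identical copy Amd2, nor those of Odc1, Oaz1, Sms and Eif5a from processed pseudogenes, and how such reads were counted is not given in the sources used here.

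Myc rose in both classes, and its unstimulated level was the lower one in CD4 cells. It lay at 23.1 and 26.8 CPM in unstimulated WT, 29.0 and 28.8 in unstimulated SDHA-KO, 73.9 and 89.3 in stimulated WT and 91.3 and 105 CPM in stimulated SDHA-KO CD4 cells. In CD8 cells the 4 groups stood at 39.1 and 39.3, 46.5 and 47.1, 58.7 and 75.1, and 90.7 and 97.9 CPM. The log2 fold change on stimulation was 1.71 in WT and 1.76 in SDHA-KO CD4 cells, and 0.77 and 1.01 in CD8 cells (adjusted p between 1.07e-07 and 0.000267). In stimulated WT libraries Myc was lower in CD8 than in CD4 cells by a log2 difference of -0.23 (adjusted p = 0.0134), where 23.5% of all genes differed between the classes. That difference was lost without either WT library, at -0.19 without replicate 1 (adjusted p = 0.193) and -0.28 without replicate 2 (adjusted p = 0.0502). Whether the stimulation response itself differed between the classes was not tested.

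Oaz1, Azin1 and Sat1 moved in differing directions. Oaz1 lay at 700.1 and 679 CPM in unstimulated and 687 and 698 CPM in stimulated WT CD4 cells, so that stimulation left its groups overlapping (log2 fold change 0.01, adjusted p = 0.957), while Oaz1 rose in low-mitochondrial WT CD4 cells (0.44, adjusted p = 0.000204) and passed with no composition scaling (0.23, adjusted p = 0.0146). In WT CD8 cells Oaz1 went from 724 and 712 to 526 and 567 CPM, a log2 fold change of -0.39 (adjusted p = 0.00106). This fall of Oaz1 turned to 0.16 in low-mitochondrial cells and to 0.09 with no composition scaling, neither past the threshold. Without that scaling the median of all genes moved up by 0.48 in the WT CD8 comparison and by 0.22 to 0.29 in the other 3 stimulation comparisons, and changes are read relative to it. In SDHA-KO cells Oaz1 rose, by a log2 fold change of 0.65 in CD4 cells (adjusted p = 1.69e-05) and of 0.20 in CD8 cells (adjusted p = 0.0396), the latter lost without unstimulated SDHA-KO replicate 2 (0.13, adjusted p = 0.257) and likewise without replicate 2 of stimulated SDHA-KO (0.12, adjusted p = 0.288). Azin1, the decoy, rose in both classes of WT cells, from 28.5 and 35.2 to 42.7 and 42.0 CPM in CD4 cells (log2 fold change 0.41, and 0.29 with adjusted p = 0.054 without unstimulated WT replicate 1) and from 21.4 and 28.3 to 49.8 and 46.5 CPM in CD8 cells (0.94, adjusted p = 6.2e-05). In SDHA-KO cells Azin1 rose in CD8 (0.81) but was at 35.3 and 33.3 before and 32.2 and 31.5 CPM after stimulation in CD4 cells (-0.11, adjusted p = 0.349). Sat1 fell in CD8 cells, from 84.5 and 68.3 to 50.4 and 48.3 CPM in WT (-0.62, adjusted p = 0.00041) and by 0.52 on the log2 scale in SDHA-KO cells, where CD8 cells without Trdc UMIs gave -0.16 (adjusted p = 0.27). In CD4 cells Sat1 fell by 0.23 on the log2 scale in WT and by 0.41 in SDHA-KO cells, and the WT fall was lost (adjusted p from 0.0873 to 0.173) without unstimulated WT replicate 1, unstimulated WT replicate 2 or stimulated WT replicate 2, at -0.18, -0.24 and -0.19. With no composition scaling Sat1 did not pass in any of the 4 comparisons, with values from -0.23 to -0.01.

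**Figure D2:**
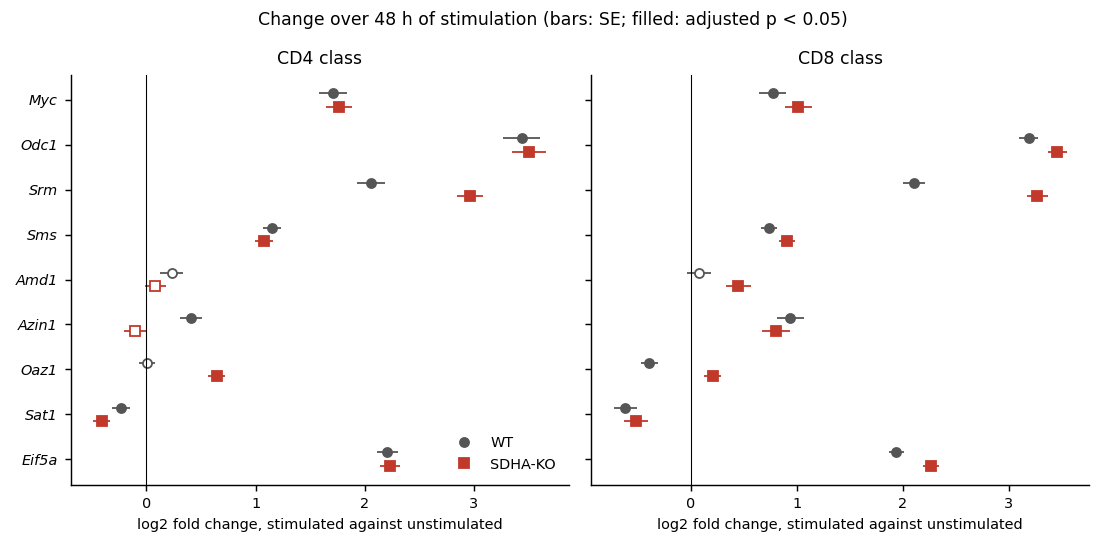
Log2 fold change of stimulated against unstimulated cells for each of the 9 genes, WT and SDHA-KO, in CD4 and CD8 cells, with bars of 1 standard error from the edgeR fit (2 libraries per group). Odc1 changed most, between 3.19 and 3.51, and Sat1 was the member below 0 in all 4 comparisons.

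In stimulated CD4 cells, SDHA-KO libraries had more Srm, Oaz1 and Odc1 and less Azin1 and Sat1 than WT libraries. The 3 genes that were higher and 2 that were lower stand against 22.7% and 20.5% of all 14264 genes tested (43.2% in either direction). Srm was at 93.0 and 91.8 CPM in the WT and 173 and 212 CPM in the SDHA-KO libraries, and the groups did not overlap (log2 fold change 1.06, SE 0.0994, adjusted p = 1.57e-05). Odc1 stood at 228 and 223 against 291 and 389 CPM (0.59, SE 0.131, adjusted p = 0.00384), with SDHA-KO replicate 2 well above replicate 1. Among the regulators, the antizyme Oaz1 stood at 687 and 698 against 997 and 1125 CPM (0.62, SE 0.0768, adjusted p = 9.95e-05) and its decoy Azin1 at 42.7 and 42.0 against 32.2 and 31.5 CPM (-0.41, SE 0.0903, adjusted p = 0.00375). Both genes were separated without overlap, in opposite directions. The share of all genes without overlap in this comparison is not given, so the separation of 2 against 2 libraries is a description. Sat1 stood at 90.3 and 81.8 against 71.3 and 73.5 CPM (-0.25, adjusted p = 0.0209), a call that failed without stimulated WT replicate 1 (-0.16, adjusted p = 0.227) or stimulated SDHA-KO replicate 1 (-0.21, adjusted p = 0.0857).

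Myc narrowly missed the threshold in the full sums of stimulated CD4 cells and passed under 6 of the 11 alternatives tried. Its libraries did not overlap, at 73.9 and 89.3 CPM in WT and 91.3 and 105 CPM in SDHA-KO, but they lay close together (log2 fold change 0.26, SE 0.101, adjusted p = 0.0535). Myc passed without stimulated WT replicate 2 (0.42, adjusted p = 0.0196) and without stimulated SDHA-KO replicate 1 (0.38, adjusted p = 0.0185). It also passed with the replicate block (0.27, adjusted p = 0.027), with no composition scaling (0.29, adjusted p = 0.034), with mitochondrially encoded genes left out (0.28, adjusted p = 0.0421) and with no filter on low counts (0.31, adjusted p = 0.00604). It did not pass without the other library of either genotype, with DESeq2, in a fit of the 4 libraries alone or in low-mitochondrial cells, where adjusted p ran from 0.0836 to 0.92. Eif5a, at 1133 and 1146 against 1181 and 1353 CPM, gave 0.15 (adjusted p = 0.182), and 0.26 without stimulated SDHA-KO replicate 1 (adjusted p = 0.0466). Sms, at 175 and 169 against 159.9 and 183 CPM, overlapped between genotypes (-0.01, adjusted p = 0.963). Amd1, at 29.99 and 27.2 against 24.5 and 26.5 CPM, gave -0.16 (adjusted p = 0.166).

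In stimulated CD8 cells, 7 of the 9 genes were higher in SDHA-KO and none was lower, where 26.8% of 13095 genes were higher and 23.5% lower (50.4% in either direction). Srm showed the largest difference of the set, at 121 and 114 CPM in WT and 374 and 388 CPM in SDHA-KO libraries (log2 fold change 1.70, SE 0.0766, adjusted p = 2.49e-07). Odc1 stood at 195 and 193 against 342 and 347 CPM (0.83, SE 0.0649, adjusted p = 3.42e-06). For both enzymes the distance between genotypes was many times that between replicates. Eif5a stood at 1118 and 1141 against 1635 and 1749 CPM (0.58, SE 0.068, adjusted p = 4.17e-05) and Myc at 58.7 and 75.1 against 90.7 and 97.9 CPM (0.49, SE 0.102, adjusted p = 0.00206). Oaz1 stood at 526 and 567 against 723 and 791 CPM (0.47, adjusted p = 0.000468). None of these 5 genes overlapped between the genotypes, and the share of all genes without overlap is not given.

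Smaller differences in CD8 cells depended on single libraries. Amd1 stood at 28.3 and 29.7 against 36.5 and 38.3 CPM (log2 fold change 0.37, adjusted p = 0.00573), and lost its call without stimulated WT replicate 1 (0.32, adjusted p = 0.0648). Sms stood at 165 and 163 against 183 and 194 CPM (0.20, adjusted p = 0.0276), and lost its call without stimulated WT replicate 1, stimulated WT replicate 2 or stimulated SDHA-KO replicate 2, at 0.19, 0.18 and 0.14 (adjusted p = 0.108, 0.139 and 0.207). Azin1, at 49.8 and 46.5 against 50.9 and 45.8 CPM, and Sat1, at 50.4 and 48.3 against 46.6 and 53.4 CPM, overlapped between genotypes (0.01 and 0.02, adjusted p = 0.956 and 0.911).

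The log2 fold change of stimulated SDHA-KO against WT was more positive in CD8 than in CD4 cells for 4 genes, when the difference of the effects was tested in a fit of both classes with the library as a block. These were Srm (difference of log2 fold changes 0.63, SE 0.0869, adjusted p = 0.00243), Amd1 (0.52, adjusted p = 0.00936), Eif5a (0.42, adjusted p = 0.00258) and Azin1 (0.40, adjusted p = 0.0133), where 22.4% of 14617 genes passed in either direction. For Azin1 the effect was -0.41 in CD4 and 0.01 in CD8 cells. Without stimulated WT replicate 1 Amd1 was at 0.41 (adjusted p = 0.0621), and Azin1 missed narrowly without stimulated WT replicate 2 (0.38, adjusted p = 0.0522) or stimulated SDHA-KO replicate 1 (0.34, adjusted p = 0.0514). DESeq2 called Srm and Eif5a and did not call Amd1 (0.54, adjusted p = 0.0708) or Azin1 (0.42, adjusted p = 0.103). Odc1, whose effects were 0.59 and 0.83, gave 0.24 (adjusted p = 0.185), and 0.43 without stimulated SDHA-KO replicate 2 (adjusted p = 0.00352). Sat1 gave 0.25 (adjusted p = 0.0676), and 0.32 without stimulated SDHA-KO replicate 1 (adjusted p = 0.0458). Myc at 0.22 (adjusted p = 0.0604), Sms at 0.19 (adjusted p = 0.0689) and Oaz1 at -0.16 (adjusted p = 0.0984) did not pass. In low-mitochondrial cells Srm at 0.56, Amd1 at 0.49, Eif5a at 0.35, Azin1 at 0.35 and Myc at 0.27 passed with CD8 above CD4, and Oaz1 at -0.18 with CD8 below, beside 18.2% of genes.

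Before stimulation none of the 9 genes passed in either class, where 1.1% of 14264 genes in CD4 and 0.947% of 13095 genes in CD8 cells did. At an unadjusted p under 0.05, 1 of the 9 passed in CD4 cells (Odc1) and 3 in CD8 cells (Odc1, Srm and Eif5a). Of all genes, 2282 of 14264 in CD4 and 1852 of 13095 in CD8 cells passed that limit. Odc1 was higher in both SDHA-KO libraries in both classes, at 34.1 and 26.0 against 18.9 and 22.6 CPM in CD4 cells (log2 fold change 0.52, unadjusted p = 0.0191, adjusted p = 0.221, and 0.33 without SDHA-KO replicate 1) and at 29.98 and 32.6 against 20.3 and 22.1 CPM in CD8 cells (0.56, unadjusted p = 0.000699, adjusted p = 0.0606). In CD8 cells Srm stood at 42.0 and 37.0 against 24.8 and 29.2 CPM (0.54, adjusted p = 0.0872) and Eif5a at 366 and 337 against 290.2 and 298 CPM (0.26, adjusted p = 0.143). The highest of these CD4 levels, 34.1 CPM, was in the sum that also held 38.7 CPM of myeloid markers, whose part in the result was not tested. Odc1, Srm and Eif5a did not overlap between genotypes in CD8 cells, and DESeq2 called all 3 (adjusted p = 0.0347 for Odc1, 0.0301 for Srm and 0.0488 for Eif5a). The shares of all genes without overlap or called by DESeq2 are not given. CD8 cells without Trdc UMIs gave 0.67 for Odc1, which passed (adjusted p = 0.0249) as did 1.74% of all genes there, and 0.61 for Srm, which did not (adjusted p = 0.064). The libraries held few UMIs of these genes, 71 to 110 of Odc1 and 87 to 140 of Srm per unstimulated CD8 sum.

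A test of whether the SDHA-KO effect changed with stimulation passed for 3 genes in each class. In CD4 cells these were Srm (0.90, adjusted p = 0.00466), Oaz1 (0.64, adjusted p = 0.00224) and Azin1 (-0.51, adjusted p = 0.0255), with 21.4% of all genes passing. In CD8 cells these were Srm (1.16, adjusted p = 0.000503), Oaz1 (0.60, adjusted p = 0.00357) and Eif5a (0.33, adjusted p = 0.036), with 23.8% of all genes passing. Among low-mitochondrial cells Srm alone of these still passed, and in CD8 cells alone (0.68, adjusted p = 0.0289), where 14.2% of genes in CD4 and 11.1% in CD8 cells passed; Sat1 passed in CD4 cells there (-0.41, adjusted p = 0.0344). For Odc1 the effect was 0.52 before and 0.59 after stimulation in CD4 and 0.56 and 0.83 in CD8 cells, and the difference of 0.07 in CD4 and 0.27 in CD8 cells did not pass (adjusted p = 0.877 and 0.18). Azin1 lost its call when any of 6 of the 8 libraries was left out, with values from -0.55 to -0.37 and adjusted p from 0.0565 to 0.123, and kept it without unstimulated WT replicate 2 or stimulated SDHA-KO replicate 1. Eif5a likewise lost it for 6 of the 8 libraries, with values from 0.25 to 0.33, and kept it when replicate 1 of either SDHA-KO group was left out.

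In low-mitochondrial cells Srm remained higher in SDHA-KO in both classes and Odc1 in CD8 cells, with smaller log2 fold changes, and some other genes changed direction. In CD4 cells Srm kept a log2 fold change of 0.66 (adjusted p = 0.000377), Oaz1 0.24 (adjusted p = 0.0248) and Azin1 -0.32 (adjusted p = 0.0276), while Sat1 went further down to -0.48 (adjusted p = 0.000745). Odc1 fell short at 0.28 (adjusted p = 0.117), Myc was at 0.02 (adjusted p = 0.92), Amd1 was at -0.23 (adjusted p = 0.0667), and Sms at -0.30 and Eif5a at -0.24 were now lower in SDHA-KO (adjusted p = 0.012 and 0.0418). That made 2 genes higher and 4 lower, beside 16% and 16.7% of 13710 genes (32.8% in all). In CD8 cells Srm at 1.23, Odc1 at 0.48, Myc at 0.30 and Amd1 at 0.28 remained higher (adjusted p = 4.27e-06, 0.000278, 0.0377 and 0.044), where 18.4% of 12600 genes were higher and 17% lower (35.4% in all). Eif5a at 0.13, Oaz1 at 0.08, Azin1 at 0.07, Sms at -0.11 and Sat1 at -0.19 did not pass.

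**Figure D3:**
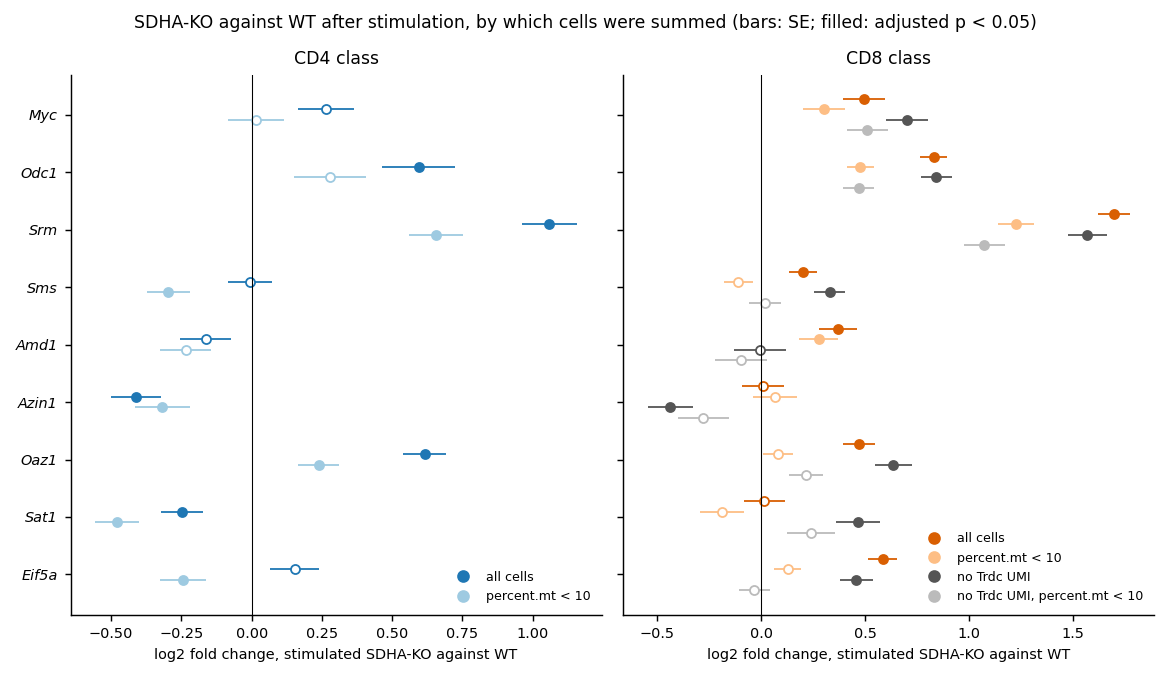
Log2 fold change of stimulated SDHA-KO against stimulated WT cells for the 9 genes, by which cells were summed, with bars of 1 standard error (2 libraries per group). Srm stayed above 0 and past the threshold under every choice of cells shown, from 0.66 in low-mitochondrial CD4 cells to 1.70 in all CD8 cells, while Eif5a in CD4 cells moved from 0.15 to -0.24.

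The level of the genes differed between cells with low and with high mitochondrial shares of the same library, here in CPM over the UMIs of nuclear genes. Srm in stimulated CD4 cells lay at 125 and 121 in low-mitochondrial WT and 198 and 239 in low-mitochondrial SDHA-KO cells, and at 49.7 and 40.7 against 74.0 and 95.1 in the other cells. In CD8 cells Srm lay at 209 and 176 against 471 and 479 in low-mitochondrial and at 67.5 and 65.6 against 167 and 172 in the other cells. The genotypes were thus apart within both kinds of cell, and both kinds were apart within each genotype. Eif5a lay at 1532 and 1488 against 1346 and 1525 in low-mitochondrial CD4 cells and at 576 and 591 against 597 and 627 in the others. Its genotypes overlapped in the first and stood close in the second, while low-mitochondrial cells had more Eif5a in all 4 libraries. Myc lay at 89.0 and 104 in low-mitochondrial WT CD4 cells and 77.8 and 93.6 in the others, and at 102 and 117 against 93.3 and 75.6 in SDHA-KO CD4 cells. In CD8 cells Myc lay at 76.6 and 96.6 against 78.5 and 90.1 in WT and at 109.7 and 116 against 82.5 and 91.3 in SDHA-KO, so that the kinds of cell were apart in SDHA-KO and overlapped in WT. Odc1 in the other CD8 cells lay at 189 and 174 in WT and 296 and 297 in SDHA-KO. The part of the mitochondrial share in the differences of the full sums was not tested beyond these splits.

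**Figure D4:**
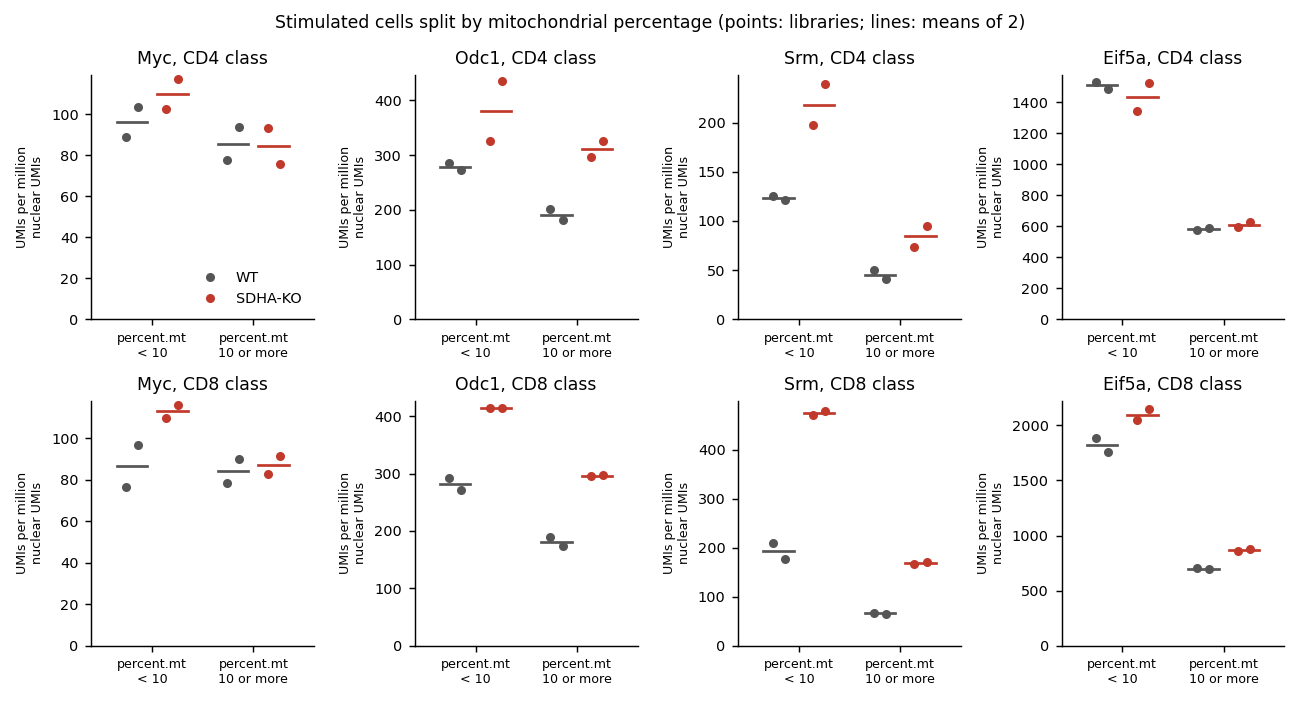
Level (CPM over nuclear UMIs) of Myc, Odc1, Srm and Eif5a in stimulated cells with under 10% and with 10% or more mitochondrial UMIs, by class and genotype, 1 point per library. Srm was higher in SDHA-KO than in WT libraries in all 4 combinations of class and mitochondrial share, and Eif5a was higher in low-mitochondrial cells of every library.

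Leaving out CD8 cells with Trdc UMIs left most differences in place. Against stimulated WT, Srm was at 1.57, Odc1 at 0.84, Myc at 0.70, Oaz1 at 0.64, Eif5a at 0.46, Sat1 at 0.46 and Sms at 0.33 in SDHA-KO, all past the threshold, and Azin1 was lower at -0.44 (adjusted p = 0.00424), which made 7 higher and 1 lower. Of all 11938 genes 24.9% were higher and 24.4% lower (49.3% in all). Amd1 went from 0.37 to -0.01 (adjusted p = 0.97). With Trdc cells left out and low-mitochondrial cells alone, Srm at 1.07, Myc at 0.51 and Odc1 at 0.47 passed (adjusted p = 3.6e-06, 0.00161 and 0.000344), where 16.3% of 11686 genes were higher and 16.3% lower (32.6% in all). Within the stimulated SDHA-KO libraries, Azin1 lay at 70.1 and 61.9 CPM over nuclear UMIs in cells with a Trdc UMI and at 44.2 and 40.5 in cells without. Amd1 lay at 51.1 and 49.2 against 30.3 and 37.7 in the same split. Srm was higher in SDHA-KO on either side, at 469 and 475 against 235 and 165 in WT cells with a Trdc UMI and at 396 and 415 against 155 and 142 in cells without. The excess of the effect in CD8 cells without Trdc UMIs over that in all CD4 cells was 0.54 for Srm, 0.47 for Myc, 0.33 for Eif5a, 0.36 for Sms and 0.74 for Sat1, past the threshold beside 13% of 14492 genes, and 0.18 for Amd1 and -0.00 for Azin1, which were not. The CD4 sums kept their cells with a Trdc UMI.

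Within the study's Subtypes, Srm and Odc1 had positive log2 fold changes in SDHA-KO throughout, and Sat1 had negative ones. The 11 stimulated Subtypes with at least 30 cells in each library were tested singly, 8 of CD4 and 3 of CD8 cells, and the share of all genes that passed differed between them: in CD4 cells 12.9% in Tcm2, 17.1% in Tcm3, 15.1% in Tcm4, 27.8% in Tem1, 24% in Tem2, 23% in Tem3, 28.3% in Tem5 and 8.47% in Tem7, and in CD8 cells 14.3% in Tcm3, 5.63% in Tcm4 and 32.6% in Tem2. Srm was higher in SDHA-KO in 11 of 11 and passed in 10, with log2 fold changes from 0.70 in CD4 Tcm2, where it missed (adjusted p = 0.0898), to 1.58 in CD4 Tem7. In CD8 Tem2 Srm stood at 249.6 and 210.4 CPM in WT and 615 and 591 CPM in SDHA-KO libraries, and in CD4 Tem7 at 39.2 and 17.98 against 115 and 71.3 CPM. Odc1 was higher in 11 of 11 and passed in 9, from 0.20 in CD4 Tcm2 to 1.03 in CD4 Tem7, missing also in CD8 Tcm4 (0.53, adjusted p = 0.115). In CD4 Tem7 Odc1 stood at 314 and 302 against 439 and 824 CPM. Sat1 went the other way in 11 of 11 Subtypes and passed in 5, in CD8 Tem2 too (72.1 and 62.8 against 44.5 and 48.9 CPM, -0.53, adjusted p = 0.0111), while its levels overlapped in the summed CD8 cells. Cells with a Trdc UMI made up 80% and 82.5% of SDHA-KO and 5.30% and 6% of WT cells in CD8 Tem2. In the summed stimulated SDHA-KO CD8 cells Sat1 lay at 41.2 and 45.1 CPM over nuclear UMIs in cells with a Trdc UMI and at 76.9 and 86.8 in cells without, and without Trdc cells the summed CD8 difference was 0.46 (adjusted p = 0.00249). The part of these cells in the fall of Sat1 in CD8 Tem2, or in any other difference within a CD8 Subtype, was not tested. The largest fall of Sat1 was in CD4 Tcm4, from 89.8 and 72.7 to 30.7 and 32.2 CPM (-1.37, adjusted p = 0.00204). With each of the 4 libraries left out in turn, Srm passed every time in 6 Subtypes and lost its call in CD4 Tcm3 (0.93 to 1.07), CD4 Tcm4 (0.56 to 0.64), CD4 Tem7 (1.23) and CD8 Tcm4 (1.26 to 1.51), in each of them without stimulated WT replicate 2, in both CD4 Tcm Subtypes also without stimulated SDHA-KO replicate 2 and in CD8 Tcm4 also without stimulated WT replicate 1. Odc1 passed every time in 4 Subtypes, CD4 Tem1, Tem2, Tem3 and CD8 Tem2, and missed without 1 or more of the libraries in CD4 Tcm3 (0.18 to 0.51), CD4 Tcm4 (0.36 to 0.51), CD4 Tem5 (0.30 to 0.32), CD4 Tem7 (0.52 to 1.08) and CD8 Tcm3 (0.80 to 0.91). The lowest of these values, 0.18 in CD4 Tcm3 and 0.52 in CD4 Tem7, came without stimulated SDHA-KO replicate 2. Sat1 in CD8 Tem2 was at -0.44 without stimulated WT replicate 1 (adjusted p = 0.0756), where Sat1 passed in 3 Subtypes and was positive in 2, CD4 Tem7 (0.16) and Tcm3 (0.05). With no composition scaling Sat1 was positive in CD4 Tcm3 (0.22) and Tem1 (0.14), and without stimulated SDHA-KO replicate 1 in 1 Subtype (0.02), in none of these past the threshold. The Subtypes are the study's clusters of these same cells, and their cells came from the same 4 libraries.

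The other genes differed by Subtype. Eif5a was higher in CD4 Tem7 (0.97), CD8 Tcm3 (0.56) and CD8 Tem2 (0.32) and lower in CD4 Tem1, where it stood at 1301 and 1286 in WT and 899 and 930.1 CPM in SDHA-KO (-0.50, adjusted p = 0.00015). Oaz1 was higher in CD4 Tem2 (0.30), Tem3 (0.28) and Tem7 (0.77, 673 and 708 against 1060 and 1299 CPM). Amd1 was lower in CD4 Tem2 (-0.61) and Tem3 (-0.66) and higher in CD8 Tem2 (0.48), where it stood at 32.3 and 31.0 against 42.0 and 46.7 CPM. Most SDHA-KO and few WT cells of the tested CD8 Subtypes held a Trdc UMI, as given above. Without such cells the difference of Amd1 in the summed CD8 cells was lost. Azin1 was lower in CD4 Tem2 (-0.49) and Tem3 (-0.64), and Sms in CD4 Tem1 (-0.29) and Tem5 (-0.28). Of these calls, those of Eif5a in CD4 Tem1 and CD8 Tem2 and of Oaz1 in CD4 Tem2 held with each library left out in turn. Each of the others kept its direction and missed the threshold without at least 1 library: without stimulated WT replicate 2 alone, Eif5a in CD4 Tem7 was at 0.76 and Amd1 in CD4 Tem2 at -0.52, and without stimulated SDHA-KO replicate 2, Azin1 in CD4 Tem3 was at -0.49, Amd1 there at -0.51 and Oaz1 there at 0.18 and in CD4 Tem7 at 0.63. Myc passed in CD4 Tcm3 alone, where it was lower in SDHA-KO, at 29.7 and 46.8 against 70.7 and 78.0 CPM (-0.98, adjusted p = 0.0242), and this call was lost without stimulated WT replicate 2 (-0.92, adjusted p = 0.0884) or stimulated SDHA-KO replicate 1 (-0.67, adjusted p = 0.264). In the other 10 Subtypes Myc lay between -0.34 and 0.30. In all, 39 of the 99 tests of a gene in a stimulated Subtype passed, where 5.63% (CD8 Tcm4) to 32.6% (CD8 Tem2) of all genes passed per Subtype. With DESeq2 27 passed, none of them for Amd1, Azin1, Sms or Myc, and the shares of all genes with DESeq2 are not given. The share of low-mitochondrial cells was 95.7% or more in every library for CD4 Tem1, Tem2, Tem3, Tem5 and CD8 Tem2, and 58.7% or less for the 5 Tcm Subtypes. Before stimulation 1 of 97 such tests passed, Eif5a in CD8 Naive4 (0.54, adjusted p = 0.0497), with 0.496% to 7.83% of genes passing.

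**Figure D5:**
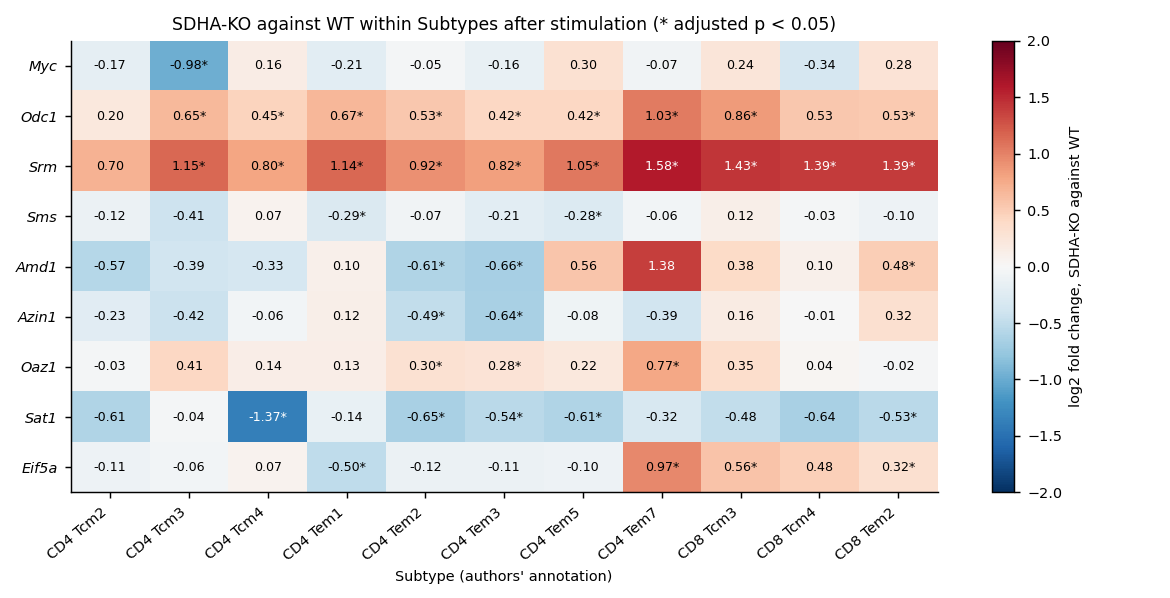
Log2 fold change of SDHA-KO against WT for the 9 genes (rows) in the 11 stimulated Subtypes with at least 30 cells in each library (columns), as colors around 0, with a mark where adjusted p was under 0.05. The rows of Srm and Odc1 are above 0 throughout, from 0.70 to 1.58 and from 0.20 to 1.03, and the row of Sat1 is below 0 throughout.

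At matched total UMIs, mitochondrial ones included, Srm and Odc1 were higher per cell in stimulated SDHA-KO than in WT libraries of both classes. Stimulated SDHA-KO CD8 cells held 15.6 and 15.8 UMIs of Srm per cell against 3.54 and 3.50 in WT, but they also held more UMIs in all, with medians of 30662 and 29912 against 13152 and 13265 per cell. With every cell thinned to 5000 UMIs, which left out 2 to 86 cells per stimulated sum, the mean of Srm was 1.56 and 1.63 UMIs in SDHA-KO and 0.388 and 0.436 in WT CD8 cells, and 0.790 and 1.01 against 0.279 and 0.287 in CD4 cells. The thinned mean of Odc1 was 1.36 and 1.77 against 0.958 and 0.895 in CD4 and 1.73 and 1.66 against 0.869 and 0.847 in CD8 cells. Neither gene overlapped between genotypes on this scale, and the share of all genes without overlap is not given. Depth in nuclear UMIs was not matched. The median mitochondrial share was 15.9% and 14.9% in stimulated WT and 1.79% and 1.77% in stimulated SDHA-KO CD4 cells. In CD8 cells it was 19.0% and 16.9% against 3.22% and 3.43%. The thinned mean of Eif5a was also apart in CD4 cells, at 5.92 and 6.68 against 4.13 and 4.05, where the test on the summed UMIs gave 0.15 and did not pass. In low-mitochondrial CD4 cells the summed UMIs gave -0.24. That of Amd1 overlapped in CD8 cells, at 0.174 and 0.208 against 0.163 and 0.203, where the sums did not. The UMIs were spread over many cells: the 1% of cells with the most Srm held 12.7% to 15.4% of its UMIs in stimulated WT and 5.94% to 7.24% in stimulated SDHA-KO sums. In unstimulated CD4 cells the 1% of cells with the most Odc1 held 20.4% to 29.6% of its UMIs.

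The neighbors of the 9 genes in the pathway were described as lists, by the count of genes that passed and the median log2 fold change in stimulated SDHA-KO against WT. Of 15 other polyamine and hypusine genes in the matrix, 12 were tested in CD4 cells, where 1 was higher and 4 lower (median 0.03), and 10 in CD8 cells, where 2 were higher and 1 lower (median 0.14); over all genes tested the medians were -0.00 and -0.01, with 22.7% higher and 20.5% lower in CD4 and 26.8% and 23.5% in CD8 cells. The 2 hypusine enzymes were the ones that rose in CD8 cells: Dohh was at 79.1 ± 2.54 CPM in SDHA-KO and 42.2 ± 0.271 in WT (SD, n = 2; log2 fold change 0.91, adjusted p = 8.87e-06 by edgeR) and Dhps at 67.1 ± 1.33 against 39.0 ± 1.67 CPM (0.78). In CD4 cells Dohh was at 50.3 ± 5.94 against 40.5 ± 1.51 CPM (0.32, adjusted p = 0.0203), and Dhps gave 0.01. In low-mitochondrial cells Dohh was at 0.53 in CD8 and 0.00 in CD4 cells, and Dhps at 0.60 in CD8 cells. Without Trdc cells, 9 genes of the list were tested in CD8 cells. Of these 2 were higher and 1 lower (median -0.11), beside 24.9% and 24.4% of all genes. Among low-mitochondrial CD8 cells without Trdc UMIs, 1 was higher and 1 lower (median -0.10), beside 16.3% of all genes each way. Values of Dohh and Dhps without Trdc cells are not given. Among the lower genes in CD4 cells were Atp13a3, a polyamine transporter of endosomes, at 62.5 ± 0.907 against 80.3 ± 0.12 CPM (-0.36), and Smox, spermine oxidase, at 14.1 ± 1.99 against 20.1 ± 0.0676 CPM (-0.51).

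Supply and salvage genes provide ornithine and S-adenosylmethionine and recover methionine from the methylthioadenosine that polyamine synthesis releases. Of 15 tested, 5 were higher and 2 lower in CD4 cells (median 0.03), and 8 were higher and 1 lower in CD8 cells (median 0.31), beside the 22.7% and 20.5% of all genes in CD4 and 26.8% and 23.5% in CD8 cells. Mtap, the first enzyme of the salvage route, was at 83.6 ± 2.09 CPM in SDHA-KO and 39.4 ± 0.0891 in WT CD8 cells (log2 fold change 1.08, adjusted p = 1.95e-06 by edgeR, n = 2) and at 52.6 ± 8.12 against 39.4 ± 0.425 CPM in CD4 cells (0.42). Mat2a, which makes S-adenosylmethionine, was at 196 ± 0.812 against 106 ± 9.07 CPM in CD8 cells (0.88), and Apip, another salvage enzyme, rose in CD4 cells (0.39). Aldh18a1, which starts the synthesis of ornithine and proline from glutamate, was lower in both classes (-0.83 in CD4, 14.8 ± 0.702 against 26.4 ± 0.112 CPM, and -0.35 in CD8 cells). In low-mitochondrial cells the list turned, with 1 higher and 6 lower in CD4 cells (median -0.27) and 3 higher and 3 lower in CD8 cells (median 0.06), beside 16% and 16.7% of all genes in CD4 and 18.4% and 17% in CD8 cells. Mtap at 0.86, Mat2a at 0.92 and Aldh18a1 at -0.48 still passed there in CD8 cells, and Aldh18a1 at -0.92 in CD4 cells, while Mtap at 0.20 and Apip at 0.06 did not. Without Trdc cells the list read 7 higher and 1 lower in CD8 cells (median 0.37), beside 24.9% and 24.4% of all genes. Among low-mitochondrial CD8 cells without Trdc UMIs it read 2 higher and 3 lower (median -0.02), beside 16.3% each way. Values of the named genes without Trdc cells are not given.

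Genes around Myc were called in both directions. Of 23 tested partners, antagonists and cofactors, 5 were higher and 7 lower in CD4 cells (median 0.07) and 9 higher and 4 lower in CD8 cells (median 0.02), where all genes gave 22.7% and 20.5% in CD4 and 26.8% and 23.5% in CD8 cells. Mxi1, which competes with Myc for Max, was lower in both classes, at 25.5 ± 6.6 against 56.8 ± 0.0204 CPM in CD4 (log2 fold change -1.16) and 17.2 ± 4.95 against 50.3 ± 1.83 CPM in CD8 cells (-1.54, adjusted p = 9.84e-06 by edgeR, n = 2). Mga, another Max partner, was lower too (-0.47 and -0.36). The antagonist Mxd1 (0.58) and the kinase Pim1 (292 ± 41.2 against 142 ± 4.65 CPM, 1.04) were higher in CD4 cells, and Mlx (0.73) and the helicase Ruvbl1 (142 ± 1.02 against 90.1 ± 1.43 CPM, 0.65) in CD8 cells. Mxi1 stood at -1.17 and -1.64 in low-mitochondrial cells, and Mga at -0.24 and -0.21 no longer passed there. Without Trdc cells the list read 8 higher and 5 lower in CD8 cells (median -0.05), beside 24.9% and 24.4% of all genes. Among low-mitochondrial CD8 cells without Trdc UMIs it read 3 higher and 5 lower (median 0.04), beside 16.3% each way. Values of the named genes without Trdc cells are not given.

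Of 24 genes known as induced by Myc, 10 were higher and 4 lower in stimulated SDHA-KO CD4 cells (median 0.18) and 20 higher and 1 lower in CD8 cells (median 0.69), against 22.7% and 20.5% of all genes in CD4 and 26.8% and 23.5% in CD8 cells. On stimulation of WT cells, 23 of the 24 had risen in each class (median 1.599 in CD4 and 1.32 in CD8 cells), against 36.2% and 35.5% of all genes. The ribosome biogenesis genes Nolc1, at 340.0 ± 5.6 against 161 ± 6.26 CPM (log2 fold change 1.08), and Bop1, at 70.1 ± 1.78 against 30.4 ± 1.56 CPM (1.21, adjusted p = 2.46e-06 by edgeR, n = 2), led in CD8 cells. In CD4 cells the pyrimidine enzyme Cad (43.6 ± 3.98 against 24.7 ± 1.14 CPM, 0.82) and the cyclin Ccnd2 (541 ± 58.3 against 308 ± 12 CPM, 0.81) led. The transferrin receptor Tfrc (122 ± 5.2 against 231 ± 0.711 CPM, -0.91) and the amino acid transporter Slc7a5 (34.2 ± 1.08 against 74.7 ± 0.757 CPM, -1.13) were lower in CD4 cells, and Slc7a5 was lower in CD8 cells (-0.25, adjusted p = 0.0183 by edgeR). In low-mitochondrial cells the list read 2 higher and 10 lower in CD4 (median -0.12) and 14 higher and 1 lower in CD8 cells (median 0.37), beside 16% and 16.7% of all genes in CD4 and 18.4% and 17% in CD8 cells. Without Trdc cells it read 19 higher and 2 lower in CD8 cells (median 0.49), beside 24.9% and 24.4% of all genes, and without Trdc cells and low-mitochondrial only, 9 higher and 4 lower (median 0.11), beside 16.3% in either direction. CACGTG lay in the 250-base window of 8 of the 19 list genes that had one, or 42.1%.

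Over the 16 sums of library and class, the genes whose level followed that of Myc most closely were Cox5b, Ung, Fam92a, Rbbp7 and Eef1g, with Pearson's r of log2(CPM + 1) from 0.986 to 0.973 among 5724 genes of at least 20 CPM. For Odc1 they were Atpif1, Txnl1, Syngr2, Snrpa1 and Ybx1 (0.996 to 0.993). Of the set, Sms followed Myc with r = 0.967, Eif5a with 0.950, Odc1 with 0.936 and Srm with 0.928, at ranks 13, 100, 228 and 333. Eif5a followed Odc1 with 0.987, at rank 65. Sat1 ran opposite, at -0.66 with Myc and -0.61 with Odc1. These points share 8 libraries, and most of their spread is that between stimulated and unstimulated cells, so the values are descriptions.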

How the data were processed

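Single-cell libraries were prepared by the authors with 10x Genomics 3′ chemistry. The submitters' processing notes name bcl2fastq, Cell Ranger and the mm10 build, with no versions. Per the study's methods, libraries were merged in Seurat, cells above a limit on detected genes were removed and clusters without CD3 were left out. The authors deposited raw UMI counts per gene and cell, and a table of cells with their UMI and gene counts, the percent of UMIs from 13 mitochondrial genes (deposited as a percent), a deposited log10 ratio of CD4 to CD8 signal that was not used here, and the study's class and Subtype. Every UMI total and mitochondrial percent in that table was recomputed from the matrix and matched. No doublet caller was run here, and no cell was removed from the main sums.

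UMIs were summed per library and class, or per library and Subtype with at least 30 cells in each library. The sums were tested with edgeR 4.0.16 in R 4.3.3 (filterByExpr with a minimum count of 10 and a total of 15, TMM scaling, glmQLFit and glmQLFTest, Benjamini-Hochberg adjustment over all genes tested, called at 0.05). The 8 sums of a class entered a fit of 4 groups with 4 residual degrees of freedom. A Subtype was fitted on the 4 libraries of its state alone, with 2 residual degrees of freedom and so with low power. For the class difference, both classes of the 4 stimulated libraries entered one fit, in which each library was a block. The study itself tested single cells. On simulated counts for the stimulated comparisons, 100% of genes changed by a log2 fold of 1 or -2 were called, and of those changed by 0.5 in size 62.5% to 75% in CD4 (13692 genes) and 65% to 72.5% in CD8 cells (12454 genes). Alternatives were DESeq2 1.42.0, no composition scaling, no filter on low counts, mitochondrial genes left out, the 4 libraries compared alone, each library left out, a replicate block and restricted sets of cells. Where a library was left out, its partner was assumed to vary like the other groups of the same fit. In a Subtype fit that is the other genotype alone. The common dispersion corresponds to a spread of 8.73% between CD4 and 8.24% between CD8 libraries of a group, and the replicates of every group differed by more than sampling noise (chi-square per degree of freedom 1.57 to 14.6).

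All 9 genes were described in every comparison, with Sdha as a check of the labels. From each of 4 lists, the 2 called genes with the largest rise and the 2 with the largest fall per class in stimulated cells were named, at 20 CPM or more in the higher group. The 5 genes most like Myc or Odc1 were those with the highest Pearson's r. The genes, lists and tests were chosen with earlier results of these data known.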

Additional observations from a re-analysis of the deposited data

Results flagged for a closer look

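For 3 genes in each class the SDHA-KO effect in stimulated cells differed from that in unstimulated cells, by the test of the difference itself (edgeR's quasi-likelihood test, 2 libraries per group). In CD4 cells the difference of log2 fold changes was 0.90 for Srm, 0.64 for Oaz1 and -0.51 for Azin1, beside 21.4% of all genes passing. In low-mitochondrial CD4 cells it was 0.50 for Srm, 0.26 for Oaz1 and -0.42 for Azin1, and none of these passed (adjusted p = 0.0716, 0.115 and 0.088). There 14.2% of all genes passed. In CD8 cells the difference was 1.16 for Srm, 0.60 for Oaz1 and 0.33 for Eif5a, beside 23.8% of all genes passing. In low-mitochondrial CD8 cells Srm passed at 0.68 (adjusted p = 0.0289), while Oaz1 at 0.20 and Eif5a at -0.14 did not, beside 11.1% of all genes passing. Unstimulated cells were almost all low-mitochondrial, at 99.8% or more per library, and stimulated WT cells were not.

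For 4 genes the log2 fold change of stimulated SDHA-KO against WT was more positive in CD8 than in CD4 cells by the test of the difference: Srm at 0.63, Amd1 at 0.52, Eif5a at 0.42 and Azin1 at 0.40. Of all genes, 22.4% passed that test in either direction. For Azin1 the effect itself was -0.41 in CD4 and 0.01 in CD8 cells. Among low-mitochondrial cells all 4 passed, at 0.56, 0.49, 0.35 and 0.35, beside 18.2% of all genes. With CD8 cells that held Trdc UMIs left out, Srm at 0.54 and Eif5a at 0.33 passed (adjusted p = 0.00415 and 0.00859), and Amd1 at 0.18 and Azin1 at -0.0035 did not. There 13% of all genes passed.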

How the results depend on the processing

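Of 1233 values of single genes under an alternative, 1120 stayed on their side of the threshold, 63 lost a call and 37 gained one. Another 13 changed sign with a call in the main fit or the alternative. Changes of sign with no call in either are among the 1120, as for Amd1 in unstimulated CD4 cells, between -0.051 and 0.039. The 13 were Eif5a in stimulated CD4 cells (-0.24), Sms in stimulated CD8 cells (-0.11), Sat1 (0.038) in WT CD4 and Oaz1 (0.16) in WT CD8 stimulation, and the state difference of Eif5a in CD8 cells (-0.14), all in low-mitochondrial cells; Amd1 (-0.0067), Azin1 (-0.44) and the class difference of Azin1 (-0.0035) without Trdc cells; Amd1 (-0.10), Eif5a (-0.033), Oaz1 in WT CD8 stimulation (0.16) and the state difference of Eif5a (-0.36) with both restrictions; and Oaz1 in WT CD8 stimulation with no composition scaling (0.088). The cause was not tested.

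Counts of the 9 genes that passed moved as follows, and for most of these alternatives the share of all genes that passed is not given. In stimulated CD8 cells 7 became 4 in low-mitochondrial cells and 3 with Trdc cells also left out. In unstimulated CD4 cells 0 became 1 (Odc1) without the filter on low counts. In unstimulated CD8 cells 0 became 1 without Trdc cells, with or without the mitochondrial limit, and 3 with DESeq2 or with no composition scaling. The class difference went from 4 to 2 with DESeq2, which did not call Amd1 (0.54, adjusted p = 0.0708) or Azin1 (0.42, adjusted p = 0.103). The state difference went from 3 to 1 in low-mitochondrial cells of either class, and to 1 in CD8 cells with both restrictions. Over the Subtypes 39 became 25 in low-mitochondrial cells, where 5 Subtypes were left that held 25 of the 39. In unstimulated Subtypes 1 became 0 without Trdc cells (4 Subtypes) or with DESeq2, and 3 with no composition scaling or with the replicate block. No stimulated CD8 Subtype could be fitted without Trdc cells, as too few cells were left. Leaving out 1 library gave 4 to 6 in stimulated CD4, 5 to 7 in stimulated CD8, 0 in unstimulated, 3 to 5 for the class difference, 2 to 3 for the state difference in each class, 5 to 7 and 8 in WT CD4 and CD8 stimulation, 7 and 7 to 9 in SDHA-KO, 22 to 39 in stimulated and 0 to 2 in unstimulated Subtypes.

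Deviations of libraries with the same replicate number correlated between -0.16 and 0.0394 across groups. No sign of pairing by number was seen, which cannot exclude a shared origin, as the labels do not say how replicates were made. A replicate block gave 6 in stimulated CD4 and 7 in stimulated CD8 cells, 8 in SDHA-KO CD8 stimulation and 2 for the state difference in CD8 cells, and 38 over the stimulated Subtypes. The shares of all genes that passed with this block are not given, so these counts cannot be set against them. With 2 libraries a group, the tests called 62.5% to 75% of the genes changed by a log2 difference of 0.5 in size in the simulated counts. Those genes had 20 CPM or more on average, and smaller changes were not simulated. In the data smaller differences passed for some genes, as given above.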

Other observations

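In unstimulated cells the level of Odc1 differed between Subtypes. It was lowest in naive CD4 cells, at a mean of 10.7 CPM in WT (Naive1) and 14.4 CPM in SDHA-KO (Naive3), and highest in CD4 Tem1, at 58.5 CPM in WT and 96.2 CPM in SDHA-KO (means of 2 libraries). After stimulation Srm was lowest in CD4 Tcm3 and highest in CD8 Tem2 in both genotypes, from 24.7 to 230 CPM in WT and from 55.2 to 603 CPM in SDHA-KO. The Subtypes were clustered on these same cells, so these values are descriptions.

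Eif5a was the one gene of the set that was called in opposite directions in stimulated CD4 Subtypes, higher in Tem7 (626 and 464 CPM in WT, 1098 and 1045 CPM in SDHA-KO) and lower in Tem1. Of the cells of CD4 Tem7, 63.3% to 92.1% per library were low-mitochondrial, against 98% or more in Tem1.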
